A study of Mus musculus with 6 samples.

Results

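The opioid genes comprise 4 precursors of opioid peptides and 4 opioid receptors, and they were followed here in the hippocampus of adult mice exposed to ethanol as pups. The precursors are Penk, Pdyn, Pomc and Pnoc, and the receptors are Oprm1, Oprd1, Oprk1 and Oprl1. They were taken by gene symbol from the array annotation, where each of the 8 has 1 probe set of its own, out of 19938 genes measured. Male C57Bl/6J mice received either 2.5 g/kg ethanol in saline or saline alone under the skin, with 2 injections on postnatal day 4 and 2 more on day 7, and the hippocampus was taken at day 70. RNA from 3 mice that were not littermates was pooled for each array, with 3 ethanol pools and 3 saline pools, so that each group stood for 9 mice. The p-values measure the spread between these pools, not between single mice. Littermate pups were divided between ethanol and saline, and the main fit held no term for litter. The mice had no genetic change, and the exposure is a binge model of the third trimester. The values are log2 intensities of Affymetrix Mouse Gene 1.0 ST arrays.

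Opioid peptides are cut from larger precursor proteins inside secretory vesicles and act on receptors coupled to inhibitory G proteins, which lower cyclic AMP, open potassium channels and close calcium channels. Penk gives the enkephalins, which act mainly on the delta receptor (Oprd1) and the mu receptor (Oprm1). Pdyn gives the dynorphins, ligands of the kappa receptor (Oprk1), and Pnoc gives nociceptin, the ligand of Oprl1. Pomc gives beta-endorphin together with pituitary hormones such as corticotropin, and is known from the pituitary and the hypothalamus. In the rodent hippocampus dynorphin is a peptide of dentate granule cells and their mossy fibres, and enkephalin and nociceptin are found in GABAergic interneurons among other cells.

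Of the 8 opioid genes, Pdyn alone passed an unadjusted threshold of 0.05 (limma), and it was lower in ethanol pools. At that threshold 5.22% of all 19938 genes passed in either direction, 2.8% higher and 2.41% lower, and the 1 of 8 is to be read against these shares. After Benjamini-Hochberg adjustment over 23410 probe sets 0 of the 8 passed, as did 0% of all probe sets (lowest adjusted p among the 8 = 0.931, limma). Pools of the 2 groups did not overlap in 1 of the 8 genes, again Pdyn, against 10.4% of all genes in either direction and 5.09% lower in ethanol. Changes were small. The median log2 change over the 8 genes was 0.03, with a range from -0.17 to 0.08, and over all genes it was 0.00. Since 3 pools stand against 3, an exact permutation test of a single gene cannot give a two-sided p below 0.1.

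**Figure D1:**
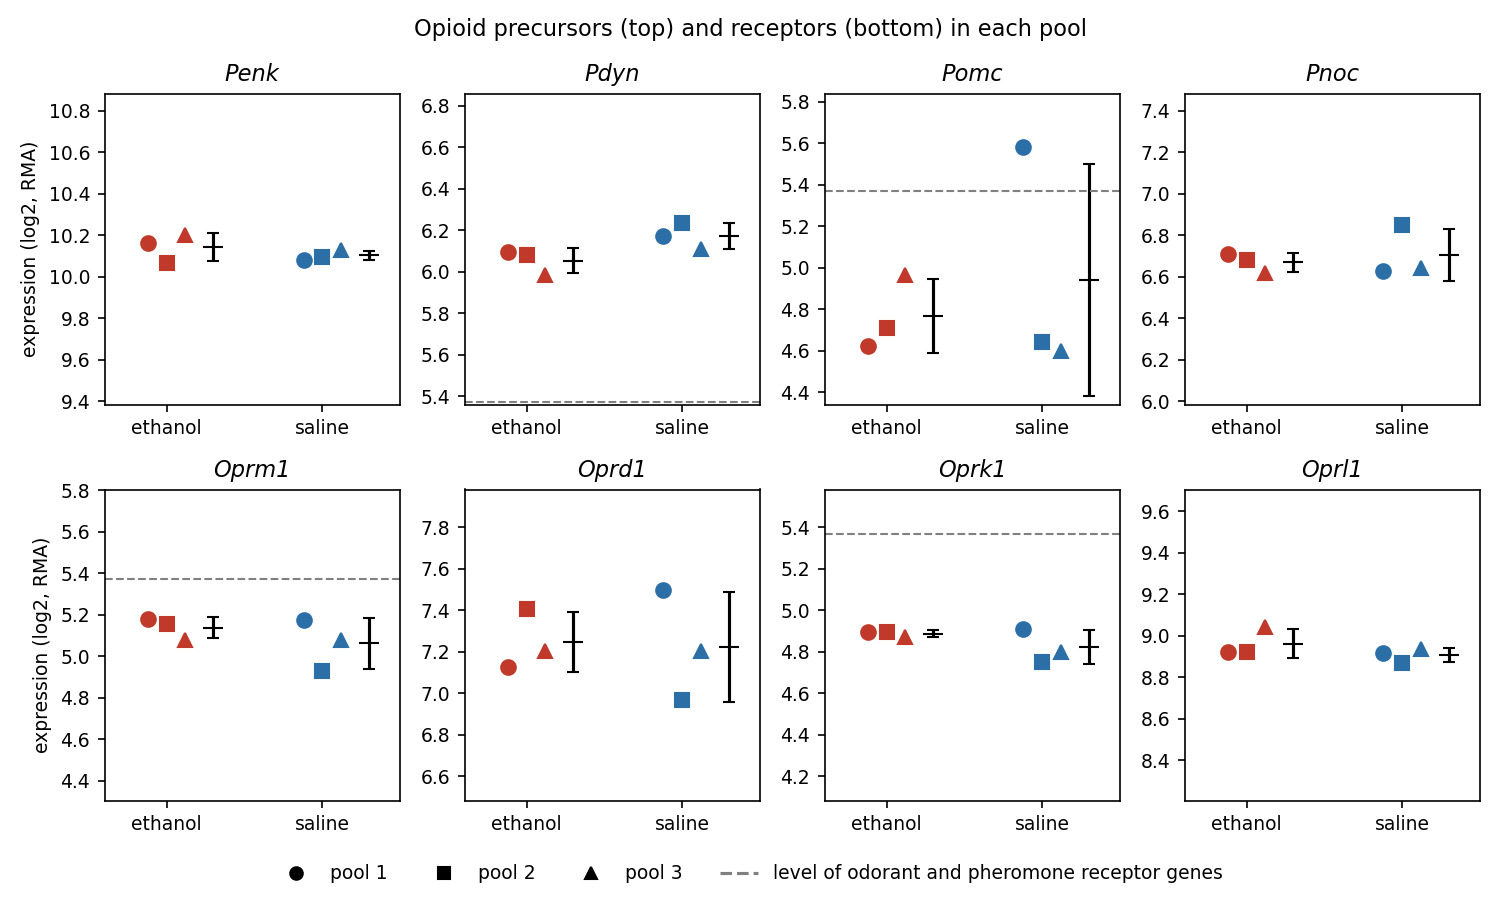
Log2 expression of each opioid gene in the 3 ethanol pools (red) and the 3 saline pools (blue), with pool numbers as symbols, the mean ± SD in black at the right of each group and every panel spanning the same number of log2 units (dashed, the level of odorant and pheromone receptor genes, 5.37). The pools are apart in Pdyn (ethanol at most 6.09, saline at least 6.11), saline pool 1 lies alone at 5.58 in Pomc, and saline pool 2 is lowest in all 4 receptors.

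To judge which of the genes were measured above the array's background, levels were set against those of olfactory and vomeronasal receptor genes, the receptors for odorants and pheromones in the nose, whose 95th percentile lay at 5.37. Penk, Pdyn, Pnoc, Oprd1 and Oprl1 lay above this level in all 6 arrays. Oprm1 and Oprk1 lay below it in all 6, and Pomc exceeded it in 1 array. A change in these 3 genes is therefore measured near the background of the array. All 10 markers of dentate granule cells and all 10 of CA1 and CA3 neurons lay above the level of odorant receptor genes, as did 62.4% of all genes, 13 of 16 thalamus markers and 12 of 12 choroid plexus markers, so that passing it was not particular to hippocampal neurons.

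Reference sequence upstream of 3 of the genes is shown because Pdyn was the only gene whose pools did not overlap and because Pomc and Oprd1 had the widest range over the arrays. Each is the 250 bases before a RefSeq start site (GRCm38.p6), 5′ to 3′ along the gene. The window of Pdyn is chr2:129699939-129700188 on the minus strand, that of Pomc is chr12:3954695-3954944 on the plus strand and that of Oprd1 is chr4:132144487-132144736 on the minus strand. Capitals mark matches, on either strand, to TATAAA (the TATA box), TGACG (the core of the cyclic AMP response element) or CACGTG (an E-box), and no match overlapped another.
Pdyn: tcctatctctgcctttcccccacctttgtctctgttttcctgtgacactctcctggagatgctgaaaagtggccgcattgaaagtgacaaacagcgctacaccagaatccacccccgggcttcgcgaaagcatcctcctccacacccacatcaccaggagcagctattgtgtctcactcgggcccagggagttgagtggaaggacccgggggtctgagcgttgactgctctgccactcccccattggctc
Pomc: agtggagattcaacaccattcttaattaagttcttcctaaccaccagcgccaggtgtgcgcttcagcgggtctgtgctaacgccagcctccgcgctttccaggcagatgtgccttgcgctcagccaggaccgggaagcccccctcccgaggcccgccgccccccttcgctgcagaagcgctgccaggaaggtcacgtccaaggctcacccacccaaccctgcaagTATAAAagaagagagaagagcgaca
Oprd1: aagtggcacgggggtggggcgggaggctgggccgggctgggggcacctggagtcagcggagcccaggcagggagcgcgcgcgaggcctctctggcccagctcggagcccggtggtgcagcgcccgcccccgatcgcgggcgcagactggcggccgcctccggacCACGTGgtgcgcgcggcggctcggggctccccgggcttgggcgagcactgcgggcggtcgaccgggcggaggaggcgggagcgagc
The Pomc window holds a TATA box that starts at position -25 from the start site, as 12.4% of 32851 RefSeq windows of this length hold one at some position. The Oprd1 window is 80% G and C, against a median of 52.4% over all windows, and holds 1 CACGTG at position -86, a motif found in 6.02% of windows. The Pdyn window holds none of the 3 motifs, and TGACG, present in 17.8% of all windows, is in 0 of the 10 windows that the table gives for Pdyn, Pomc, Oprd1, Oprm1 and Oprl1. These letters describe the windows and do not show where a factor binds. The table holds no window for Penk, Pnoc or Oprk1.

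Pdyn, the dynorphin precursor, was lower in every ethanol pool than in any saline pool. It had log2 values of 6.09, 6.08 and 5.98 in ethanol pools 1, 2 and 3, against 6.17, 6.23 and 6.11 in saline pools 1, 2 and 3. The gap between the groups was narrow, with ethanol pool 1 just below saline pool 3. The log2 change was -0.12 ± 0.05 (SE), or 0.922-fold, with a 95% interval from 0.852-fold to 0.997-fold (limma, unadjusted p = 0.0432, adjusted p = 0.931). In bulk tissue fewer cells of a type and less RNA per cell cannot be told apart. Averaged over the 10 dentate granule cell markers, the distance to the mean of the saline pools was 0.062, -0.014 and -0.124 for ethanol pools 1, 2 and 3, against -0.050, 0.053 and -0.003 for saline pools 1, 2 and 3. Both Pdyn and these markers were lowest in ethanol pool 3 and highest among saline pools in pool 2. In ethanol pool 1 the markers were highest of all 6 pools, while Pdyn lay below every saline pool. Among saline pools the markers were lowest in pool 1 and Pdyn in pool 3. On the same measure the 16 thalamus markers were at 0.708, 0.265 and 0.12 in ethanol pools 1, 2 and 3, against -0.021 to 0.034 in saline pools. Of these, 11 passed the unadjusted threshold, all higher in ethanol, against 2.8% of all genes. The 8 measured striatum markers were at 0.07, -0.068 and -0.014 in ethanol pools, against 0.001, -0.062 and 0.061 in saline pools. The part of the dentate, thalamus and striatum markers in the Pdyn result was not tested. Pdyn was no longer past the threshold in 9 of the 17 alternatives that tested it, and its change stayed below 0 in all 17. Both counts include the fit without saline pool 1 and ethanol pool 3, which was chosen after the values were seen. With all 6 arrays kept, the unadjusted p was 0.0786 in an ordinary t-test. In limma it was 0.059 over all rows of the value table, 0.0878 with an intensity trend and 0.103 with array weights. With limma refitted and 1 pool left out, the unadjusted p was 0.0804 without saline pool 1, 0.144 without saline pool 2, 0.0527 without ethanol pool 2 and 0.142 without ethanol pool 3.

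Pomc, the precursor of beta-endorphin and corticotropin, varied more between pools than nearly any other gene. Its log2 values were 4.62, 4.71 and 4.97 in ethanol pools 1, 2 and 3, against 5.58, 4.64 and 4.60 in saline pools 1, 2 and 3. Saline pool 1 stood 0.62 above the next highest pool, and the groups overlapped. The SD was 0.178 between ethanol pools and 0.557 between saline pools, and the spread within groups exceeded that of 99.8% of all genes. The log2 change was -0.17 ± 0.23 (SE), with a 95% interval from 0.612-fold to 1.28-fold (limma, adjusted p = 0.967), and it was 0.15 ± 0.09 without saline pool 1.

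Of the 7 measured pituitary markers, 3 had their highest value in ethanol pool 3 and 2 in saline pool 1, the 2 pools that were highest in Pomc. Of all genes, 19.9% were highest in ethanol pool 3 and 18.2% in saline pool 1. The 3 were Gh, Prl and Cga, and the 2 were Fshb and Tbx19. Fshb was at 4.68 in saline pool 1 and 4.67 in ethanol pool 3. Tbx19 was at 4.60 in saline pool 1 and 4.54 in saline pool 2, so both leads were narrow. Gh, the growth hormone gene, had log2 values of 6.07, 5.24 and 9.50 in ethanol pools 1, 2 and 3, against 6.51, 5.27 and 5.39 in saline pools 1, 2 and 3. Prl, the prolactin gene, had 4.95, 4.79 and 7.80 in ethanol pools, against 5.21, 4.71 and 4.77 in saline pools. Cga, which encodes the alpha subunit of the glycoprotein hormones, had 4.66, 4.57 and 5.78 in ethanol pools, against 4.80, 4.59 and 4.55 in saline pools. In these 3 genes ethanol pool 3 was highest and saline pool 1 second, whereas in Pomc saline pool 1 was highest and ethanol pool 3 second. Averaged over the 7 measured pituitary markers, the distance to the mean of the saline pools was 0.069, -0.083 and 1.119 for ethanol pools 1, 2 and 3, against 0.198, -0.102 and -0.096 for saline pools. In their means Cga, Tshb, Lhb, Fshb and the corticotroph factor Tbx19 lay below the level of odorant receptor genes, and Pou1f1 was not analysed here. Tshb and Lhb, which encode pituitary hormone subunits, were highest in ethanol pool 1 (4.83 and 4.99), against 4.59 and 4.95 in ethanol pool 3. The mean of the 9 measured hypothalamic markers lay between -0.050 and 0.064 in the 6 pools, and 2 of the 9 lay above the level of odorant receptor genes. The part of the pituitary genes in the Pomc values was not tested. Leaving out saline pool 1 and ethanol pool 3 together, which was chosen after the values were seen, put Pomc at 0.05 ± 0.05.

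**Figure D2:**
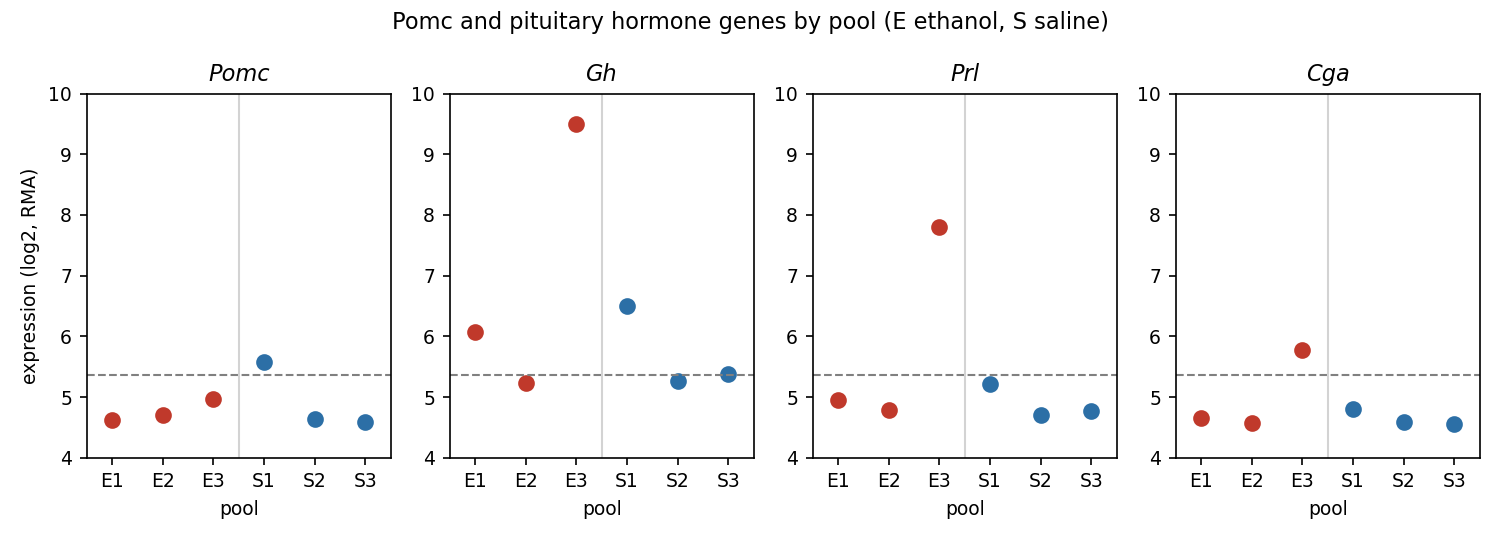
Log2 expression of Pomc and of the pituitary hormone genes Gh, Prl and Cga in ethanol pools (E1 to E3, red) and saline pools (S1 to S3, blue), on 1 scale, with the level of odorant receptor genes (5.37) dashed. Gh reaches 9.50 and Prl 7.80 in E3, and Pomc reaches 5.58 in S1.

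Penk, the enkephalin precursor, was measured closely and did not differ beyond the spread between pools. It had log2 values of 10.16, 10.07 and 10.20 in ethanol pools 1, 2 and 3, against 10.08, 10.10 and 10.13 in saline pools 1, 2 and 3. Ethanol pools held both the highest and the lowest value. The log2 change was 0.04 ± 0.05 (SE), with a 95% interval from 0.956-fold to 1.11-fold (limma, adjusted p = 0.961).

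Pnoc, the nociceptin precursor, had log2 values of 6.71, 6.68 and 6.62 in ethanol pools 1, 2 and 3, against 6.63, 6.85 and 6.64 in saline pools 1, 2 and 3. Apart from saline pool 2, which was highest, the pools of both groups lay within the same range. The log2 change was -0.04 ± 0.06 (SE), with a 95% interval from 0.882-fold to 1.08-fold (limma, adjusted p = 0.973), and it turned to 0.04 without saline pool 2. Markers of interneurons, among which Penk and Pnoc are found, had means between -0.039 and 0.035 from the saline mean in all 6 pools, and 0 of the 12 passed the unadjusted threshold.

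None of the 4 receptors passed the unadjusted threshold, and the mean of each was above that of saline, by 0.02 to 0.08 on the log2 scale. The genes that served as a measure of background shifted the same way: 847 of the 1190 olfactory and vomeronasal receptor genes had a mean above that of saline, with a median log2 change of 0.03, and of those past the unadjusted threshold 107 were higher and 7 were lower. Their mean lay at 0.010, 0.044 and 0.049 in ethanol pools 1, 2 and 3, against 0.023, -0.016 and -0.007 in saline pools 1, 2 and 3. This order of the saline pools is also that of Oprm1 and Oprk1, which lay below the level of these genes. It is that of Oprd1 too, which lay above the level. Over the ethanol pools Oprm1 and Oprk1 had the reverse order, highest in pool 1 and lowest in pool 3. The part of this shift in the values of the opioid receptors was not tested. Oprl1, the nociceptin receptor, had log2 values of 8.92, 8.92 and 9.04 in ethanol pools 1, 2 and 3, against 8.92, 8.87 and 8.93 in saline pools 1, 2 and 3. Its log2 change was 0.05 ± 0.05 (SE), with a 95% interval from 0.963-fold to 1.12-fold (limma, adjusted p = 0.942). Oprl1 was thus measured as tightly as Penk, and a change above 1.12-fold lies outside its interval.

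Oprd1, the delta receptor, varied widely within both groups. It had log2 values of 7.13, 7.41 and 7.21 in ethanol pools 1, 2 and 3, against 7.50, 6.97 and 7.20 in saline pools 1, 2 and 3. Saline pools held both the highest and the lowest value, with a range of 0.53. The spread within groups exceeded that of 99.1% of all genes. The log2 change was 0.02 ± 0.13 (SE), with a 95% interval from 0.834-fold to 1.24-fold (limma, adjusted p = 0.993), and it was -0.10 with saline pool 2 left out and -0.06 with ethanol pool 2 left out.

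Oprm1, the mu receptor, had log2 values of 5.18, 5.16 and 5.08 in ethanol pools 1, 2 and 3, against 5.18, 4.93 and 5.08 in saline pools 1, 2 and 3. Oprk1, the kappa receptor, had 4.90, 4.90 and 4.87 in ethanol pools, against 4.91, 4.75 and 4.80 in saline pools. In both genes the groups overlapped through saline pool 1, and the other saline pools lay below every ethanol pool. In Oprm1 this rests on nearly equal values, 5.0780 in saline pool 3 and 5.0789 in ethanol pool 3. The log2 change was 0.08 ± 0.06 (SE) for Oprm1, with a 95% interval from 0.953-fold to 1.17-fold (limma, adjusted p = 0.941). For Oprk1 it was 0.07 ± 0.05 (SE), with an interval from 0.969-fold to 1.13-fold (limma, adjusted p = 0.932). Oprk1 passed the unadjusted threshold when saline pool 1 was left out (0.11 ± 0.04, limma, unadjusted p = 0.0364, adjusted p = 0.81), and without saline pool 2 Oprm1 was at 0.01 and Oprk1 at 0.03.

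**Figure D3:**
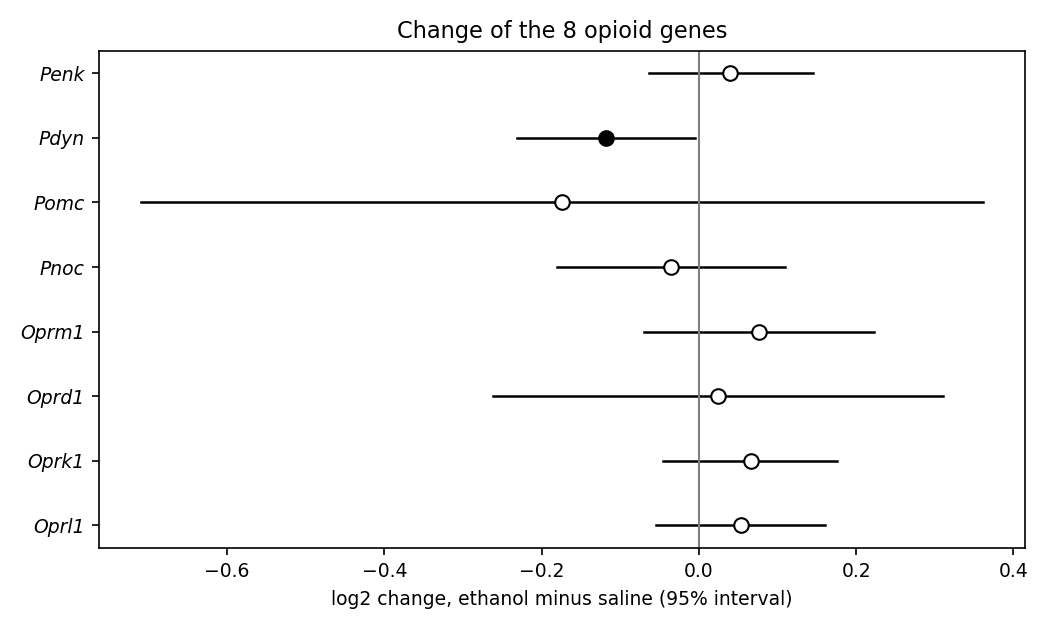
Log2 change (ethanol minus saline) of each opioid gene with its 95% interval from limma, where the filled symbol is past the unadjusted threshold and open symbols are not. The interval of Pdyn ends just below 0, and those of Pomc (-0.71 to 0.36) and Oprd1 (-0.26 to 0.31) are the widest.

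The receptors shared their lowest pool, but their order over the saline pools was not the same in every gene. In Oprm1, Oprd1 and Oprk1 saline pool 1 was the highest of the saline pools. In Oprl1 it was saline pool 3, at 8.93 against 8.92 in saline pool 1. Saline pool 2 held the lowest of the 6 values in 4 of 4 receptors, a position it held in 18.6% of all genes. It also held the highest value in Pdyn and Pnoc, as it did in 17.2% of all genes. The mean of the 4 receptors was -0.123 from the saline mean in saline pool 2, against 0.122 in saline pool 1 and 0.001 in saline pool 3, while ethanol pools 1, 2 and 3 lay at 0.027, 0.092 and 0.046. In this mean the saline pools spanned the ethanol pools. In saline pool 1 Oprd1 lay furthest above its saline mean (7.50 against 7.223), and Oprl1 lay close to its own (8.92 against 8.907). Oprm1 and Oprk1 lay below the level of odorant receptor genes, whose own mean was also lowest in saline pool 2 (-0.016). By gene, the highest value was in ethanol pool 3 for Oprl1 and in ethanol pool 1 for Oprm1. It was in saline pool 1 for Oprd1 and Oprk1. Markers of the habenula, where Oprm1 is known to be strongly expressed in rodents, were highest in ethanol pool 2 (0.384) and saline pool 2 (0.314), where Oprm1 was 5.16 and 4.93. Thalamus markers were at 0.708, 0.265 and 0.12 in ethanol pools 1, 2 and 3, against -0.021 to 0.034 over the saline pools. The part of these markers in the receptor values was not tested.

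Genes whose pattern over the 6 arrays was most like that of the 2 most variable opioid genes were sought among genes above the level of odorant receptors. Pomc was followed most closely by Ccnk (Pearson r = 0.989), Sash3 (r = 0.971) and Oxa1l (r = 0.966), and 32 of 12433 genes had r above 0.9. The log2 range over the 6 arrays was 0.147 for Ccnk, 0.378 for Sash3 and 0.0528 for Oxa1l, against 0.986 for Pomc. Ccnk encodes a cyclin of transcription, Sash3 a lymphocyte adaptor protein and Oxa1l a factor for membrane insertion in mitochondria. For Pomc the r values rest on saline pool 1. Oprd1 was followed most closely by Zfp3 (r = 0.990), Ccdc92b (r = 0.989) and L3mbtl1 (r = 0.989), with 78 of 12432 genes above 0.9. Their ranges were 0.0776, 0.141 and 0.236, against 0.53 for Oprd1, so a high r here does not mean a change of like size. Zfp3 encodes a zinc finger protein and L3mbtl1 a reader of methylated histones. With 6 arrays and so many genes compared, these values are descriptions.

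Beyond the opioid genes, 63 genes that make, degrade or transmit opioid peptides or that encode other neuropeptides were followed as 5 lists. Of these, 1 was higher and 1 was lower at the unadjusted threshold, 0 passed after adjustment, and the median log2 change was 0.00. Of all genes 5.22% passed this threshold, 2.8% higher and 2.41% lower. The lower gene was Pcsk1, the prohormone convertase that makes the first cuts in precursors such as Pomc. It had log2 values of 8.84, 8.93 and 8.83 in ethanol pools 1, 2 and 3, against 9.01, 8.93 and 9.01 in saline pools 1, 2 and 3. Ethanol pool 2 and saline pool 2 were nearly equal, and the log2 change was -0.12 ± 0.05 (SE, limma, unadjusted p = 0.0307, adjusted p = 0.931). Pcsk1 was no longer past the threshold in 6 of 18 alternatives. Both counts include the fit without saline pool 1 and ethanol pool 3, chosen after the values were seen. With limma refitted, the unadjusted p was 0.0615 with the replicate block, 0.0848 without saline pool 1, 0.0953 without saline pool 3, 0.086 without ethanol pool 1 and 0.0905 without ethanol pool 3. Of the 10 measured genes of neuropeptide processing the other 9 did not pass, among them Cpe, the carboxypeptidase that trims the cut peptides (-0.03 ± 0.05), and Pam, which amidates them (0.00 ± 0.04). Pcsk2 was not analysed here.

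Of the 11 peptidases that degrade opioid and related peptides, 1 was higher, against 2.8% of all genes. Prep, prolyl oligopeptidase, had log2 values of 9.45, 9.46 and 9.41 in ethanol pools 1, 2 and 3, against 9.34, 9.36 and 9.35 in saline pools 1, 2 and 3, and the log2 change was 0.09 ± 0.04 (SE, limma, unadjusted p = 0.0471, adjusted p = 0.931). Prep was no longer past the threshold in 9 of 18 alternatives, with the fit without saline pool 1 and ethanol pool 3 again in both counts. With limma refitted, the unadjusted p was 0.0877 with the replicate block, 0.142 with median centring and 0.0503 over all rows of the value table. It lay between 0.0771 and 0.12 when saline pool 1, 2 or 3 or ethanol pool 1 or 2 was left out. Mme, the enkephalin-degrading neprilysin, was at 0.02 ± 0.05. Ace, the angiotensin-converting enzyme, had the largest change of the list without passing (0.42 ± 0.31) and was named after its values were seen. Its log2 values were 9.14, 7.69 and 8.70 in ethanol pools 1, 2 and 3, against 7.93, 7.96 and 8.36 in saline pools. Choroid plexus markers, of an epithelium that carries Ace, had the same order in the ethanol pools (1.059, -0.274 and 0.633) and in the saline pools (-0.167, -0.018 and 0.185), and their part was not tested. The median log2 change was 0.02 over the peptidases and 0.00 over the processing genes.

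Signalling genes downstream of the receptors did not pass. Among 19 measured genes of the list of 20, of inhibitory G proteins, G protein regulators, arrestins and receptor kinases, 0 passed the unadjusted threshold, with a median log2 change of 0.00. Rgs9, a regulator that speeds the shut-off of G protein signals, had the largest difference at -0.12 ± 0.07 (SE), followed by the receptor kinase Grk5 at 0.06 ± 0.05. Among 12 effectors (potassium channels, adenylyl cyclases and calcium channels) 0 passed and the median was -0.02. The cyclases Adcy9 and Adcy8 had log2 changes of -0.09 ± 0.05 and -0.06 ± 0.08. Of 11 other neuropeptides 0 passed and the median was 0.05. Tac2, the neurokinin B precursor, was at 0.21 ± 0.27 and Adcyap1, the PACAP precursor, at 0.11 ± 0.08. Tac2, a habenula marker, was high in ethanol pool 2 (8.45) and saline pool 2 (8.41), the 2 pools in which the habenula markers were highest.

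**Figure D4:**
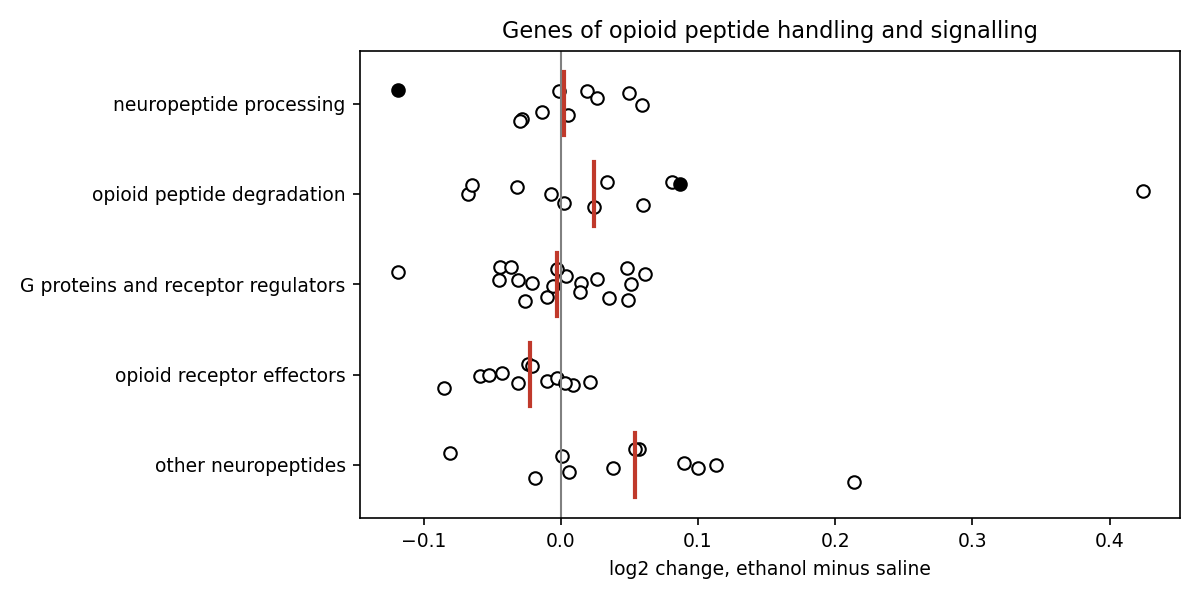
Log2 change (ethanol minus saline) of each gene in the 5 lists of opioid peptide handling and signalling, with filled symbols past the unadjusted threshold and the list median in red. Filled are Pcsk1 at -0.12 and Prep at 0.09, and the point at 0.42 is Ace.

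The coding genes that lie next to the 8 opioid genes or overlap them in RefSeq numbered 17, of which 14 were measured. Of these, 1 passed the unadjusted threshold, against 5.22% of all genes, and it was named after its values were seen. Dnmt3a, which encodes a de novo DNA methyltransferase and lies beside Pomc, had a log2 change of -0.15 ± 0.06 (SE, limma, unadjusted p = 0.0282, adjusted p = 0.931). Dnmt3a was no longer past the threshold in 5 of 18 alternatives, with the fit without saline pool 1 and ethanol pool 3 in both counts. With limma refitted, the unadjusted p was 0.057 without saline pool 1, 0.0966 without saline pool 3 and 0.0948 without ethanol pool 3. The other 13, among them Stk35 and Sirpa beside Pdyn, had log2 changes from -0.08 to 0.11. Ipcef1, which overlaps Oprm1, had the lowest of these at -0.08 ± 0.04, with pools that did not overlap and without passing.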

How the data were processed

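RNA of 3 mice per pool was hybridized to Mouse Gene 1.0 ST arrays, and the authors summarized probes with RMA and deposited log2 values, used here without further normalization. For the expression arrays, the RMA version and a genome build were not found in the sources used. Values ran from 3.51 to 13.9, and arrays correlated at 0.997 or more over probe sets. Of 35556 probe sets, 23410 had a gene symbol in the platform annotation and were tested with limma 3.58.1 in R 4.3.3 (lmFit, eBayes, two-sided, no covariate), after the ANOVA of the methods, with Benjamini-Hochberg adjustment. A gene's brightest probe set was used. The procedure was tested on simulated data. Array number limits the precision, and no batch is given in the labels.

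The opioid genes and lists were chosen with earlier results of these data known. Named were all 8 opioid genes, in each list up to 3 genes past the unadjusted threshold or the 2 with the largest change, and 3 genes most like each of the 2 opioid genes with the widest range. Cpe, Pam, Mme, Gh, Prl, Cga and other markers were named from the lists for their role or values, outside this rule. Same-numbered pools did not deviate together (r from -0.049 to 0.059), so the numbers were not taken as pairs. Pools of unlike number had r from -0.18 to 0.17. Which ethanol and saline pools share litters is not given in the labels, so a pairing by litter was not tested. Alternatives were an ordinary t-test, the replicate block, 2 scalings, all rows, 1 symbol and 2 filters on dim probe sets. The others were gene means, an intensity trend, array weights and each array left out. The fit without saline pool 1 and ethanol pool 3 was added after the values were seen and is part of the counts. Figures were drawn with matplotlib 3.10.9.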

Additional observations from a re-analysis of the deposited data

How the results depend on the processing

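The number of opioid genes past the unadjusted threshold was 1. It became 0 in an ordinary t-test, over all rows of the value table, with an intensity trend and with array weights. It was also 0 above the median level, where 3 of the 8 genes remained and Pdyn did not. It was 0 to 1 with each array left out in turn, and the 1 was Oprk1 in place of Pdyn without saline pool 1. It was 2 (Oprm1 and Oprk1) without saline pool 1 and ethanol pool 3, a setting chosen after seeing the data. The number past the adjusted threshold was 0 throughout. The 63 pathway genes gave 2 past the unadjusted threshold. This became 0 with the replicate block, 1 with median centring, 1 over all rows and 4 with array weights. It was 0 without saline pool 1 and ethanol pool 3, and 0 to 3 with each array left out. Of all 19938 genes 1040 passed, and the number moved with the setting. It was 991 with the replicate block, 1064 with median centring, 755 over all rows and 1538 with array weights. Without saline pool 1 and ethanol pool 3 it was 1259, and it ran from 727 to 1259 with each array left out. The replicate block changed no call of an opioid gene and lost those of Pcsk1 and Prep. With each array left out, log2 changes ran from -0.346 to 0.147 for Pomc, from -0.075 to 0.036 for Pnoc and from -0.103 to 0.162 for Oprd1. Pomc was at 0.047 without saline pool 1 and ethanol pool 3. Penk, Oprm1, Oprk1 and Oprl1 kept their sign in each setting that tested them, and so did Pdyn. The causes were not tested. Oprm1, Oprk1 and Pomc lay near the background, which limits what their values can show.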
